A study of Mus musculus with 51 samples.

Results

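The comparison described here sets ventral prostates of AKT1 transgenic mice given placebo for 15 d against those given placebo for 12 h or 48 h. Its members are 16 arrays of the 51 in the series, chosen by their titles, with 7 replicates of 15 d, 4 of 12 h and 5 of 48 h. The 9 arrays of 12 h and 48 h were pooled and are called early. All were FVB-AKT1 mice of 8 to 10 weeks on a standard diet, and the control shares the transgene with the 15 d group, so nothing in this comparison is an effect of the transgene by itself. The labels do not name the promoter that drives AKT1, the vehicle or the route of the placebo, and the same age range is given for every time. Wild type FVB mice on placebo (4 replicates of 12 h, 4 of 48 h and 3 of 15 d) and the transgenic mice given RAD001, an inhibitor of mTOR, for 15 d (6 arrays) serve below for comparison. The series was designed to find markers of RAD001 action, and placebo was its control, so the question here is how far that control differed between its early and late times. The titles call the arrays biological replicates but do not name the animals or say whether glands were pooled.

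The ventral prostate of the mouse is a gland of secretory luminal cells on a thin basal layer, set in smooth muscle, fibroblasts and vessels. AKT1 is a kinase that relays growth factor signals to mTOR, which raises protein synthesis and the uptake and use of glucose and amino acids. Secretory cells fold much protein in the endoplasmic reticulum (ER), and the unfolded protein response raises chaperones and degradation factors when that load grows. Cell-autonomous clocks in such tissues drive daily rhythms through the Per, Cry, Arntl and Nr1d gene families. The luminal keratins were bright in every array: Krt8 read from 2825 to 4737 in the early arrays and from 3147 to 4896 at 15 d, and Krt18 from 2589 to 3283 and from 2672 to 3091. Neither passed the test (Krt8 log2 change −0.04 ± 0.12, SE, and Krt18 −0.01 ± 0.05). Both were looked up after other values had been seen.

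The 15 d arrays did not form 1 set. On the first principal component of the 42 arrays of the larger table, which held 26.1% of the variance, the 9 early transgenic arrays lay from −23.7 to −13.2. Replicates 1 and 2 of 15 d lay at 7.07 and −2.47, whereas replicates 4, 6, 8, 9 and 10 lay from 29.5 to 73.2. The 3 wild type arrays of 15 d, from −4.94 to 11.8, lay with replicates 1 and 2. The RAD001 arrays of 15 d showed the same division, with replicates 1 and 2 at 1.0 and 7.14 and the other 4 from 33.8 to 34.5. The labels give no date, scan or extraction that separates the sets, and for the 5 other replicates time and whatever set them apart cannot be told apart. Values are therefore given for the 2 arrays and the 5 arrays separately. The arrays' median intensities, from 91.6 to 109.4 over the 16 arrays, did not separate the sets.

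**Figure D1:**
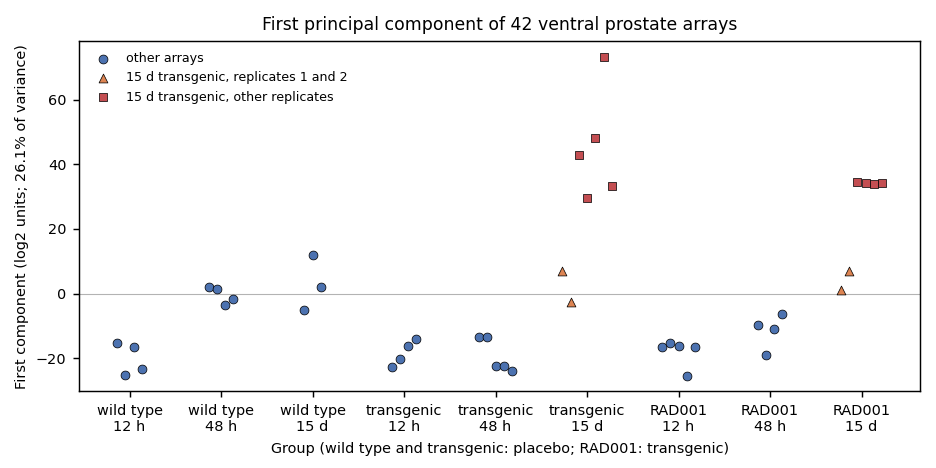
First principal component (vertical axis, log2 units) of each of 42 arrays by group; points are arrays, triangles are replicates 1 and 2 of the 15 d transgenic groups and squares their other replicates. The squares lie from 29.5 to 73.2 and the triangles from −2.47 to 7.14, in the range of the wild type arrays of 15 d, while the early transgenic placebo arrays lie from −23.7 to −13.2.

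A second difference concerned values of exactly 0. The 5 other 15 d replicates listed from 153 to 1092 probe sets at 0 (replicates 4, 6, 8, 9 and 10 in turn had 388, 153, 834, 1092 and 181), replicates 1 and 2 listed 64 and 84, and the early arrays from 51 to 166. Among the 740 features whose early median intensity was above 1000, no array of the 16 had a value between 0 and 16, yet up to 24 were listed at exactly 0. Ddit4, an mTORC1 inhibitor induced by stress, read from 1093 to 1691 in the early arrays, 1152 and 643 in 15 d replicates 6 and 10, and is listed at 0 in replicates 1, 2, 4, 8 and 9. Pkm, the muscle-type pyruvate kinase, read from 4145 to 5337 in the early arrays and 3966, 3793, 3307 and 2308 in 15 d replicates 1, 2, 6 and 10, and is listed at 0 in replicates 4, 8 and 9. Pfdn6, a prefoldin subunit, read 664 and 703 in replicates 1 and 2 and is listed at 0 in the 5 others and in 1 early array. Qsox1, Pygl, Capn2 and Nme1 were likewise above 100 in every early array and at 0 in 2 to 5 arrays of 15 d. In these genes no value lay between 0 and 16, so a gene with a 0 in any of the 16 arrays is called listed at 0 here and is given no mean. All 38 features called at least 4-fold lower at 15 d, and 250 of the 351 called at least 2-fold lower, had a 0 in a 15 d array, against 6 of 188 called at least 2-fold higher with a 0 in any of the 16.

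**Figure D2:**
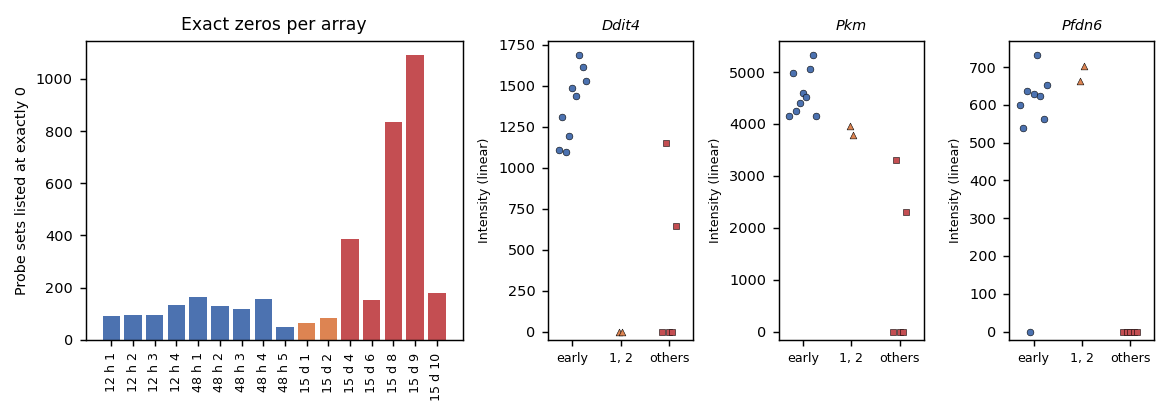
Left, number of probe sets listed at exactly 0 in each transgenic placebo array, with the time and replicate number below each bar; right, linear intensity of 3 genes in the early arrays (circles), 15 d replicates 1 and 2 (triangles) and the other 15 d replicates (squares). Replicates 8 and 9 of 15 d stand highest with 834 and 1092 zeros, and the 3 genes are either at 0 or far above it, with no value between.

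Of 9627 features tested, 5299 (55.0%) passed an adjusted p under 0.05 in limma, 2359 higher (24.5%) and 2940 lower (30.5%) at 15 d, and the median log2 change over all features was −0.10. Most changes were small: 188 of the higher and 351 of the lower features reached 2-fold. With exact zeros treated as missing, an alternative added after the data were seen, 5955 (61.9%) passed, 2686 higher (27.9%) and 3269 lower (34.0%), of which 199 and 125 reached 2-fold. Without replicates 8 and 9, the 15 d arrays with over 500 zeros, 4710 passed, and with the 2 sets of 15 d arrays weighted equally 4403 passed. Replicates 1 and 2 alone gave 1255 (13.0%), 675 higher (7.01%) and 580 lower (6.02%); scaling each array to its median changed that split to 346 higher and 902 lower, and quantile normalisation to 603 and 785. Without replicate 1 that count was 146 and without replicate 2 it was 321, each from a single 15 d array assumed to vary like the other groups. The 5 other replicates gave 5794 (60.2%), 2464 higher (25.6%) and 3330 lower (34.6%). Both rest on the same early arrays. With 2 and 5 arrays of 15 d, the 2 tests also differ in how many changes of a given size they pass, so their counts are not compared. With zeros as missing these counts were 1753 (18.2%) and 6356 (66.1%), and the interaction with genotype below gave 1720 (17.9%). Between 48 h and 12 h no feature passed limma's test (0 of 9627, 486 at an unadjusted p under 0.05); with array weights or without 48 h replicate 3 it was 1. Complete separation was less common than a call: all 7 arrays of 15 d lay above all 9 early arrays for 680 features (7.06%) and below them for 676 (7.02%), of which 679 and 587 had no 0 in the 16 arrays.

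Probe sets of the same gene often moved apart. Where a gene had 2 or more probe sets called in the comparison of 15 d with the early times, they were called in opposite directions for 433 of 1074 genes (40.3%). The same share was 41.8% with zeros as missing, 13.1% for replicates 1 and 2 alone, 43.0% for the 5 other replicates and 15.3% (87 of 568) for transgenic against wild type at 12 h and 48 h. A single probe set, the brightest, stands for each gene below. Where other tested probe sets of a named gene moved the other way, this is said. The part of this disagreement in the counts above was not tested.

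Named genes were taken by size from called features in which both 15 d sets lay at least 0.4 log2 units beyond the early mean, 12 rises and 12 falls. By that rule all 12 falls had a 0 at 15 d, and the first 2 rises, Sprr1a and Map11, were listed at 0 in 6 early arrays each. The rule was therefore applied again to genes with no 0 in the 16 arrays, a restriction made after the values were seen, and the 12 rises and 11 of the 12 falls it gave are described here. Ackr3, an atypical receptor for the chemokine CXCL12, read 15.5 to 74.6 in the early arrays (median 36.0), 143 and 70.6 in 15 d replicates 1 and 2, and 134 to 287 in the others (median 184). It rose by 2.18 ± 0.33 log2 units (SE, adjusted p = 1.8e-06, limma), although replicate 2 fell within the early range. Rasd1, a Ras-related GTPase induced by glucocorticoids, read 36.2 to 76.0 early, 139 and 95.4 in replicates 1 and 2 and 279 to 363 in the others, a rise of 2.17 ± 0.29 with all 7 arrays of 15 d above the early ones. Gsta3, a glutathione transferase, read 23.9 to 105 early, 155 and 97.7 in replicates 1 and 2 and 127 to 281 in the others, a rise of 1.85 ± 0.25 in which replicate 2 overlapped the early range. The mean of the 5 other replicates was above that of replicates 1 and 2 in each of these 3 genes.

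Slc33a1, the acetyl-CoA transporter of the ER membrane, rose to similar levels in both sets. It read 74.0 to 255 in the early arrays (median 144), 407 and 534 in replicates 1 and 2, and 442 to 528 in the others (median 506), a rise of 1.82 ± 0.18 (adjusted p = 1.8e-09, limma) with no overlap. Zhx1, a zinc finger and homeobox repressor, read 54.8 to 97.1 early, 180 and 179 in replicates 1 and 2 and 212 to 317 in the others, a rise of 1.64 ± 0.14, again with no overlap. Slc7a5, the light chain of the large neutral amino acid transporter, read 37.4 to 123 early, 239 and 125 in replicates 1 and 2 and 135 to 273 in the others, a rise of 1.59 ± 0.25. Bet1, a SNARE of ER to Golgi transport, read 32.1 to 92.3 early, 150 and 126 in replicates 1 and 2 and 104 to 190 in the others, and rose by 1.58 ± 0.25; another probe set of it also rose. The 3 do different work at membranes, and in each all 7 arrays of 15 d lay above the early arrays.

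Of the other 5 of the 12 rises, Pigt, a subunit of the enzyme that attaches GPI anchors, rose by 1.71 ± 0.20 without overlap, but replicate 2 at 176 lay close to the early maximum of 169 while the other 6 arrays read 456 to 689. Prom1, the membrane glycoprotein CD133 of luminal and progenitor cells, rose by 1.71 ± 0.25, with replicate 2 at 175 inside the early range of 45.0 to 202. Nfxl1 rose by 1.79 ± 0.17 and Lysmd3 by 1.60 ± 0.23, each with all 7 arrays above the early ones. Wdr75, a factor of ribosomal RNA processing, rose by 1.56 ± 0.19 with its brightest probe set and was called lower, by −0.36, with another.

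Among the falls, Sspo, the gene of SCO-spondin, a secreted matrix glycoprotein, fell to like levels in both sets. It read 278 to 446 in the early arrays (median 326), 113 and 115 in replicates 1 and 2, and 95.0 to 192 in the others (median 115), a fall of −1.44 ± 0.12 (adjusted p = 9.0e-11, limma). Cachd1, which resembles calcium channel subunits, read 394 to 626 early, 196 and 257 in replicates 1 and 2 and 178 to 243 in the others, a fall of −1.33 ± 0.13; another probe set of it did not pass (−0.10, adjusted p = 0.49, limma). Ifna1 and Ifnab, type I interferon genes of a family with near-identical copies whose signals may not be separable, fell by −1.53 ± 0.14 and −1.61 ± 0.36, and Ifna1 read 356 to 585 early, 194 and 203 in replicates 1 and 2 and 111 to 260 in the others. In Sspo, Cachd1, Ifna1 and Ifnab every 15 d array lay below every early array.

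Rpf2, a factor of large ribosomal subunit assembly, read 609 to 836 early, 163 and 270 in replicates 1 and 2 and 170 to 387 in the others, a fall of −1.67 ± 0.50. Zc3h7a, an RNA-binding zinc finger gene, read 498 to 788 early, 363 and 431 in replicates 1 and 2 and 133 to 240 in the others, and fell by −1.41 ± 0.16; its second probe set did not pass (−0.0034, adjusted p = 0.99, limma). Edar, the receptor of ectodysplasin in epithelial development, fell by −1.66 ± 0.31, but replicate 1 at 637 lay within the early range of 555 to 1251 and replicate 2 at 530 just below it. Fgr, a Src-family kinase of myeloid cells, fell by −1.33 ± 0.17 with no overlap, and BC006965 by −1.33 ± 0.16, also with none. Mmp24, a membrane-anchored metalloproteinase, fell by −1.31 ± 0.23, with replicates 1 and 2 at 165 and 171 inside the early 142 to 334. Scg3, a granin of secretory granules, fell by −1.40 ± 0.27, with replicates 1 and 4 at 119 and 67.4 inside the early 57.5 to 256.

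**Figure D3:**
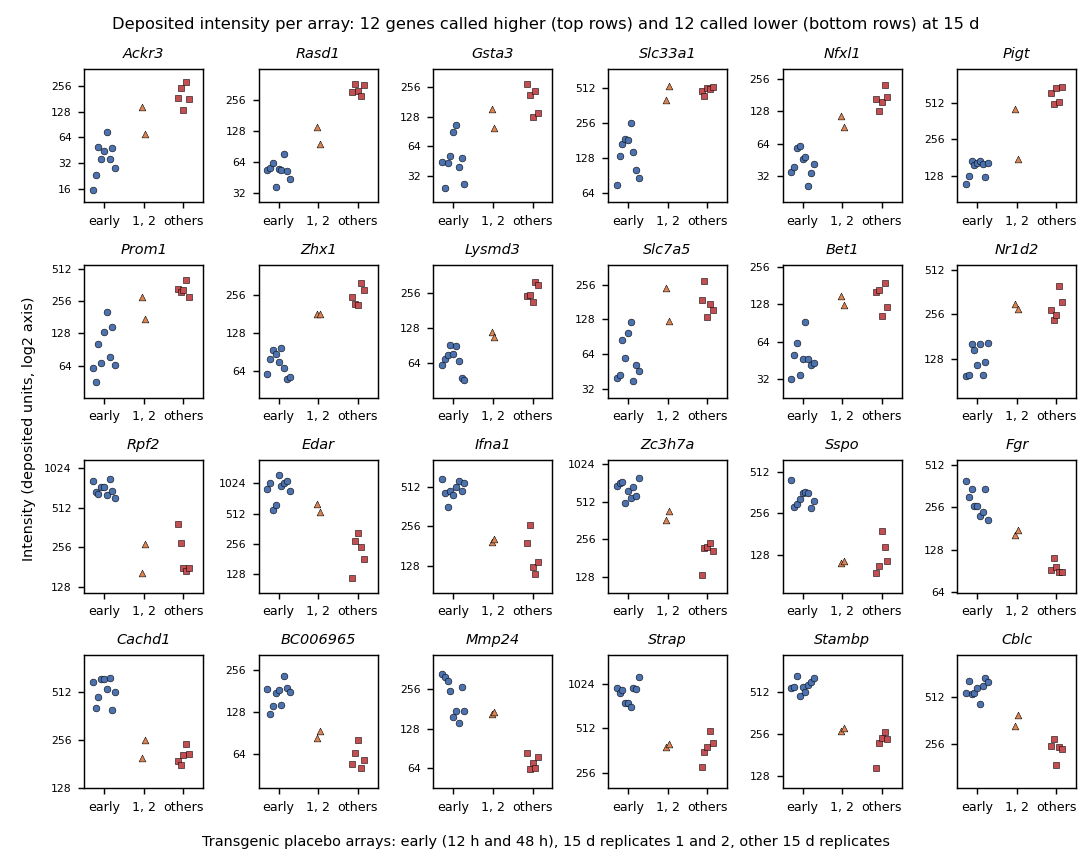
Deposited intensity (vertical axes, log2 scale) in the early arrays (circles), 15 d replicates 1 and 2 (triangles) and the other 15 d replicates (squares) for 12 genes called higher (upper 2 rows) and 12 called lower (lower 2 rows). In Slc33a1, Nr1d2, Sspo and Strap the triangles and squares lie together and apart from the circles, whereas in Rasd1 and Lysmd3 the triangles lie between, and in Mmp24 they lie among the circles.

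The gene lists described next were chosen with earlier results of these data known. Their counts are to be read against the 24.5% higher and 30.5% lower of all features. Counts by set have other shares of all features. These were 7.01% higher and 6.02% lower for replicates 1 and 2, and 25.6% and 34.6% for the 5 others. Numbers of arrays differ between the sets, so counts by set are not compared with each other. Of 28 tested genes of ER chaperones and the unfolded protein response, 14 rose and 3 fell, with a median log2 change of 0.30; replicates 1 and 2 gave 4 and 2 and the others 12 and 5. Derl1 and Derl2, channels that return misfolded proteins to the cytosol, rose by 0.84 ± 0.12 and 0.49 ± 0.09. Derl2 read 258 to 391 early, 440 and 478 in replicates 1 and 2 and 431 to 504 in the others, so that all 7 arrays lay above the early ones. Dnajb9, an ER co-chaperone, rose by 1.03 ± 0.20, from 505 to 832 early to 879 and 913 in replicates 1 and 2 and 1180 to 1764 in the others. Ddit3, the transcription factor CHOP, rose by 1.02 ± 0.21, with replicates 1 and 2 at 147 and 95.6 against 88.7 to 122 early and 218 to 405 in the others. Hyou1, an ER chaperone of the Hsp70 class, went the other way, by −0.68 ± 0.11, and in wild type mice by −1.20. Atf6 and Xbp1, transcription factors of this response, were the other called falls and were named after their values were seen. Atf6 read 527 to 862 early, 408 and 421 in replicates 1 and 2 and 384 to 532 in the others, a fall of −0.66 ± 0.13. Xbp1 read 1562 to 2311 early, 2136 and 2356 in replicates 1 and 2 and 612 to 1314 in the others, a fall of −0.76 ± 0.18, so the 2 sets lay on opposite sides of the early mean; another of its probe sets was called higher by 0.23.

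The ATF4 list, genes of amino acid supply that are induced when amino acids are short, had 10 rises and 5 falls among 22. Psph, the last enzyme of serine synthesis, read 44.4 to 71.7 early, 116 and 99.5 in replicates 1 and 2 and 127 to 238 in the others, a rise of 1.39 ± 0.16 (adjusted p = 2.3e-08, limma) without overlap. Slc7a5 belongs here too. Sesn2, a leucine sensor of the mTOR pathway, fell by −0.82 ± 0.14, from 498 to 664 early to 380 and 465 in replicates 1 and 2 and 215 to 515 in the others. Thus members of the list moved in both directions.

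Of 22 citric acid cycle genes 9 rose and 1 fell, and 7 rose and 1 fell without replicates 8 and 9. The list's median log2 change was 0.07 (0.16 with zeros as missing), and it was 0.10 in wild type mice. Dld, the dihydrolipoamide dehydrogenase shared by several complexes, read 59.8 to 135 early, 188 and 166 in replicates 1 and 2 and 159 to 279 in the others, a rise of 1.06 ± 0.14. Suclg2, a succinyl-CoA ligase subunit, rose by 0.71 ± 0.11, from 136 to 205 early to 288 and 358 in replicates 1 and 2 and 211 to 268 in the others, and by 0.73 in wild type mice. Aco1, the cytosolic aconitase, rose by 0.92 ± 0.14 and Dlst by 0.63 ± 0.11. Ogdh, which works in 1 complex with Dlst and Dld, fell by −1.21 ± 0.21, with 618 and 621 in replicates 1 and 2 just below the early 637 to 773 and 111 to 367 in the others.

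In the glycolysis list 7 of 13 tested genes fell and none rose, with a median of −0.39. With zeros as missing 9 fell and the median was −0.35. With the replicate number as a block 4 fell, where 2011 of all 9627 features did. Hk1, a hexokinase, read 666 to 1180 early, 594 and 531 in replicates 1 and 2 and 467 to 682 in the others, a fall of −0.58 ± 0.10 (adjusted p = 7.6e-06, limma). Pgk1, the phosphoglycerate kinase, read 3944 to 5121 early, 3225 and 4161 in replicates 1 and 2 and 2625 to 3843 in the others, a fall of −0.45 ± 0.11. Pfkfb3, which makes an activator of phosphofructokinase, fell by −0.39 ± 0.11, a call that was lost with 48 h alone as the early group (adjusted p = 0.070, limma). Slc2a1, the glucose transporter GLUT1, read 375 to 680 early and 286 to 368 in 6 of 7 arrays of 15 d, and is listed at 0 in replicate 9; without that array the change was −0.50, and another probe set was called higher by 0.57. Its call was lost with only the compared arrays in the fit (adjusted p = 0.087, limma) and with 12 h alone as the early group (adjusted p = 0.057, limma). Replicates 1 and 2 alone called 1 of the 13 lower, where 6.02% of all features were called lower. The 5 others called 8, where 34.6% of all features were. The medians were −0.26 and −0.48. Per array the median change of the 13, with zeros left out, lay from −0.68 to −0.12 at 15 d and from −0.12 to 0.17 early. Of 22 hypoxia targets outside glycolysis 5 rose and 5 fell, with a median of −0.12. Vegfa, a hypoxia-induced growth factor of vessels, fell by −0.43 ± 0.10, with replicates 1 and 2 inside the early range and the 5 others below it. Bnip3, another hypoxia-induced gene, did not pass (−0.31 ± 0.14, adjusted p = 0.060, limma).

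The 250 bases upstream of the start of several of these genes are shown because they hold the core of the hypoxia response element, ACGTG, or the E-box CACGTG, which contains it. Matches on either strand of ACGTG are in capitals; sequences are from RefSeq (GRCm38.p6), read along the gene's strand, at the first start listed for each gene. Pgk1 is at chrX:106186850-106187099 (plus strand), Pfkfb3 at chr2:11553930-11554179 (minus strand) and Dnajb9 at chr12:44210069-44210318 (minus strand).
Pgk1: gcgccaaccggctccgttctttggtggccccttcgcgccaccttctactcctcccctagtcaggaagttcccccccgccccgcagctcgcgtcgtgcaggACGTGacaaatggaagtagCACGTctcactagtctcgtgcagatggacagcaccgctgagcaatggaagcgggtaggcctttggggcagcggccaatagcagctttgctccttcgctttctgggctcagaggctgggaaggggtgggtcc
Pfkfb3: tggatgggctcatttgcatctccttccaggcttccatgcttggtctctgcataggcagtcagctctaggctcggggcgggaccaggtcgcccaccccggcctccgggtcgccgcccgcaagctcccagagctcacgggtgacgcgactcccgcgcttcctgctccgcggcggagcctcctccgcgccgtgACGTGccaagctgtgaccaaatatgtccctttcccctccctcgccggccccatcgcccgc
Dnajb9: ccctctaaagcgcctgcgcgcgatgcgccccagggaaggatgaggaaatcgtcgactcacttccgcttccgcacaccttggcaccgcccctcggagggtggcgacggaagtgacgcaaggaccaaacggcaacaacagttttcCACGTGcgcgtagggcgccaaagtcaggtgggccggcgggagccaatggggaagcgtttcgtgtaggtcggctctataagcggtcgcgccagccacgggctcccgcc
ACGTG was present in this window in 3 of the 7 glycolysis genes that fell (42.9%), in 7 of all 13 tested (53.8%) and in 1484 of 6859 tested genes with a listed promoter (21.6%). CACGTG was in none of the 7, in 2 of the 13 and in 586 of the 6859 (8.5%). In the ER list ACGTG was in 3 of the 12 risen genes with a listed promoter and 8 of 24 tested (33.3%). A match describes letters in the window only.

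Of 19 tested genes of cholesterol synthesis 2 rose and 10 fell, and with zeros as missing 4 rose and 11 fell. Of the 19, 10 had a 0 in the 16 arrays, and 3 falls were left among genes without one. Replicates 1 and 2 gave no call in either direction (median −0.03) and the 5 others 3 and 13 (median −0.76, and −0.44 with zeros as missing); the difference between the sets was not tested. Per array, with zeros left out, the list's median was −0.10 and −0.08 in replicates 1 and 2, −0.07 and −0.01 in replicates 4 and 8, and −0.42, −0.20 and −0.63 in replicates 6, 9 and 10. Srebf2, the transcription factor that controls the pathway, read 486 to 670 early, 463 and 549 in replicates 1 and 2 and 288 to 364 in the others, a fall of −0.59 ± 0.11. Nsdhl and Idi1 are listed at 0 in replicates 4, 8 and 9 and read 295 and 275 (Nsdhl) and 123 and 99.0 (Idi1) in replicates 6 and 10, each below its early range of 495 to 642 and 167 to 252. Mvk, mevalonate kinase, is listed at 0 in replicate 4, without which it fell by −0.91, and Pmvk, the next enzyme, rose by 0.59 ± 0.14.

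Nr1d2 and Cry2, both repressors of the clock, rose alike in both sets. Nr1d2, which encodes REV-ERB beta, read 97.4 to 164 in the early arrays (median 122), 299 and 278 in replicates 1 and 2, and 236 to 399 in the others (median 273.7), a rise of 1.19 ± 0.14 (adjusted p = 3.1e-08, limma) with no overlap. Cry2 read 102 to 176 early, 263 and 203 in replicates 1 and 2 and 181 to 279 in the others, a rise of 0.67 ± 0.13, also with no overlap. Per3 fell by −0.55 ± 0.13, with replicates 1 and 2 at 111 and 122 against 114 to 151 early and 69.3 to 86.8 in the others; a second probe set of it was called higher by 0.69. Of the 14 clock genes tested 3 rose and 2 fell. The labels do not give the hour of dissection.

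Among 26 splicing factors 11 rose and 6 fell, with a median log2 change of 0.15 (0.20 in wild type mice). In 6 of them all 7 arrays of 15 d lay above the early ones. Replicates 1 and 2 gave 6 rises and no fall, and the 5 others 11 and 9. Luc7l3 rose by 1.01 ± 0.15, Clk1 and Clk4, kinases of splicing factors, by 0.65 ± 0.10 and 0.62 ± 0.10, and Tra2b by 0.49 ± 0.08. Clk4 read 110.0 to 151 early, 198 and 168 in replicates 1 and 2 and 175 to 288 in the others, and rose in wild type mice by 0.57. Of 18 cell cycle genes 2 rose and 8 fell. With zeros as missing 2 rose and 5 fell, where 34.0% of all features were called lower. Replicates 1 and 2 called none of the 18, and the 5 others gave 2 rises and 7 falls. Aurka, the mitotic kinase, fell by −0.96 ± 0.15, with 119 and 193 in replicates 1 and 2 against 156 to 242 early and 70.8 to 95.8 in the others. Mcm2, Rrm2 and Cdkn2c are listed at 0 in 3, 3 and 4 arrays of 15 d, and with zeros as missing Mcm2 fell by −0.55 and Rrm2 and Cdkn2c did not pass.

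Of 12 tested secretory and androgen-regulated genes of the ventral prostate 3 were higher and 5 lower, against 24.5% and 30.5% of all features. With so few genes these counts are not read as a change of the list. Replicates 1 and 2 called none higher and 1 lower, and the 5 others 3 and 5. Pbsn, the androgen-regulated secretory gene probasin, did not pass (0.18 ± 0.19, adjusted p = 0.43, limma) and read 1880 to 5882 early and 3980 to 5058 at 15 d. Slc45a3, the androgen-regulated transporter prostein, read 3432 to 4846 early, 2707 and 3425 in replicates 1 and 2 and 2032 to 2818 in the others, a fall of −0.66 ± 0.09 with no overlap. Pigr, the receptor that carries immunoglobulins into secretions, fell by −0.32 ± 0.08. Mme, the membrane peptidase neprilysin, rose by 1.06 ± 0.19 and Hpgd, which inactivates prostaglandins, by 1.23 ± 0.32. Akt1 itself did not pass (−0.07 ± 0.10), nor did Eif4ebp1, a target of mTOR (0.04 ± 0.12). Mtor did not pass either, and it is listed at 0 in replicate 9.

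In a bulk gland fewer cells of a type and less RNA per cell cannot be told apart. Some markers of other cell types were also called, and their part in these results was not tested. The counts of the fibroblast, smooth muscle, luminal and lymphocyte lists lay below the shares of all features (24.5% higher and 30.5% lower). They are not read as changes of those lists. Of 25 fibroblast and matrix genes 4 rose and 6 fell. Sparc, a collagen-binding matrix protein, read 1022 to 1572 early, 622 and 532 in replicates 1 and 2 and 303 to 840 in the others, a fall of −1.30 ± 0.18 with no overlap, and of −1.01 in wild type mice. Mfap5, a microfibril protein, fell by −0.96 ± 0.11 and by −0.78 in wild type mice. Col1a2, a chain of type I collagen, fell by −0.86 ± 0.17 with no overlap, whereas Pdgfra, a receptor of fibroblasts, rose by 0.74 ± 0.14 with its brightest probe set and was called lower by −0.49 with another. Of 18 endothelial genes on the array only 5 were tested. Of these 3 fell (Ramp2 by −0.58 ± 0.07, Flt1 by −0.45 ± 0.10 and Kdr by −0.46 ± 0.11) and none rose. Replicates 1 and 2 called 1 lower and none higher, and the 5 others called 3 lower and 1 higher. The list's median per array lay from −0.51 to −0.12 at 15 d and from −0.15 to 0.16 early. Of 10 neutrophil and mast cell genes 5 fell and none rose, 9 with zeros as missing, among the 5 Tpsb2, a mast cell tryptase (−0.69 ± 0.12), Mmp8 (−0.50 ± 0.11), Camp (−0.42 ± 0.13) and Il1b (−0.70 ± 0.17), which was at 350 and 417 in replicates 1 and 2, inside the early 309 to 471. Replicates 1 and 2 called none of the 10 and the 5 others called 5 lower. The list's median per array lay from −0.89 to −0.11 at 15 d and from −0.14 to 0.14 early. Of 15 smooth muscle genes 2 rose (Cald1 by 0.64 ± 0.11 and Mylk by 0.76 ± 0.16) and 2 fell (Tpm1 by −0.41 ± 0.11 among them), with other probe sets of Cald1 and Mylk called lower. Of 23 luminal genes 1 rose and 6 fell, Cldn3, a tight junction protein, by −0.90 ± 0.16; without replicates 8 and 9 the counts were 4 and 4. Of 4 erythroid genes tested 3 fell, with a median of −0.91 (−0.46 with zeros as missing), and the median per array lay from −0.93 to −0.25 at 15 d and from −0.15 to 0.19 early. The adipocyte list had 2 rises and 3 falls of 8, the lymphocyte list 2 falls of 9 and the urothelial list 2 falls of 3. Their medians were −0.59, −0.32 and −0.38, and −0.27, −0.24 and −0.38 with zeros as missing. With zeros left out, the median of each of these lists lay below 0 in all 7 arrays of 15 d.

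**Figure D4:**
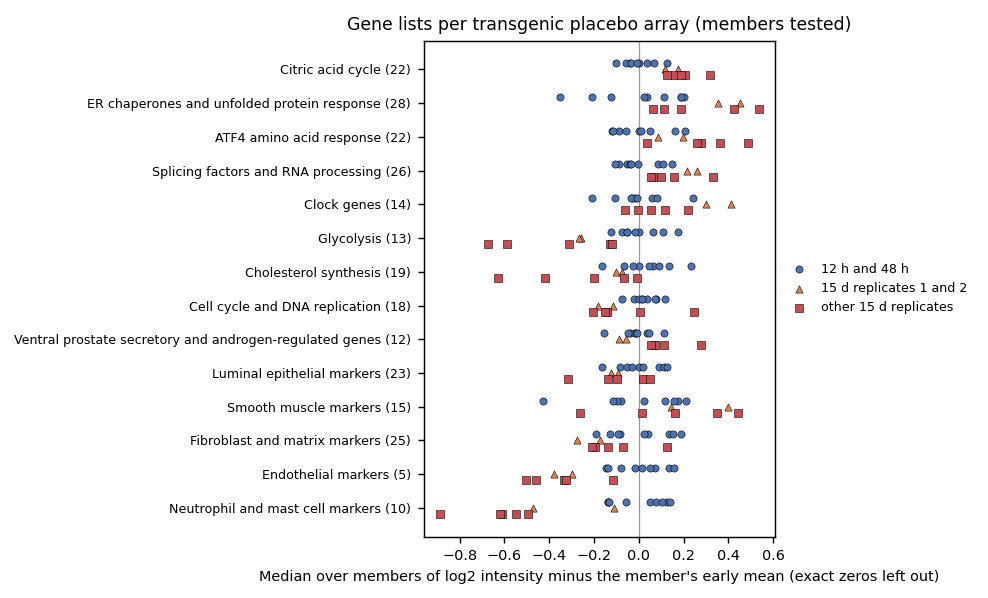
Median over the members of each list of the log2 intensity minus the member's own early mean (horizontal axis, exact zeros left out), 1 point per transgenic placebo array; circles are early arrays, triangles 15 d replicates 1 and 2, squares the other 15 d replicates, and the number of members tested is in parentheses. The glycolysis, endothelial and neutrophil lists lie to the left of 0 in all 7 arrays of 15 d and the citric acid cycle to the right, while the clock genes of replicates 1 and 2 lie to the right of the other sets.

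Where the sets differed most is given as a description, since they were seen in these values. Among genes without a 0, Mmp7, the metalloproteinase matrilysin, stood highest: 165 and 86.7 in replicates 1 and 2 and 168 to 2740 in the others (median 378), against 74.6 to 287 early. Without replicate 6, which held the 2740, its change from the early arrays was 1.33 with an adjusted p of 0.054 in limma. Ggact read 76.2 and 61.2 in replicates 1 and 2 and 240.0 to 346 in the others, against 75.5 to 124 early. Hspa1b, an inducible Hsp70, read 783 and 788 in replicates 1 and 2 and 1591 to 4676 in the others, against 707 to 1400 early; the signal of its near-identical copy may be mixed in, and another of its probe sets is listed at 0 in 3 arrays of 15 d. Bex1 and Cygb were also higher in the 5 others, by 1.90 and 1.81 log2 units. In the other direction Cracr2b was lower in the 5 others by −1.94, the cytoskeletal crosslinker Actn4 by −1.77, the kinase Mark2 by −1.73 and Plekhh1 by −1.72; Actn4 read 1634 and 1673 in replicates 1 and 2 and 347 to 677 in the others, against 1662 to 2047 early. The RAD001 arrays of 15 d, which share no array with placebo, showed the same sign in each of these 9 genes, from −1.65 in Cracr2b to 2.06 in Mmp7. Over 9608 features the differences between sets under placebo and under RAD001 correlated with r = 0.78, a description across features, which are not independent replicates.

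**Figure D5:**
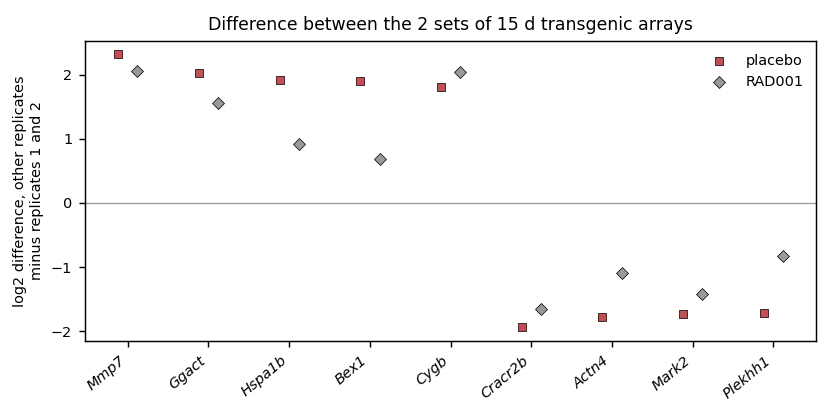
Difference between the mean log2 intensity of the other 15 d replicates and that of replicates 1 and 2 (vertical axis) for 9 genes, under placebo (squares) and RAD001 (diamonds). Both points lie on the same side of 0 for each gene, from 2.32 (Mmp7) to −1.94 (Cracr2b) under placebo.

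Whether the change depended on the transgene was tested with an interaction term. In wild type mice 895 features (9.30%) differed between 15 d and the early times, 454 higher (4.72%) and 441 lower (4.58%). The pooled wild type early arrays were not 1 set on the first component. Those of 12 h lay from −25.2 to −15.1 and those of 48 h from −3.49 to 2.06, within the range of 15 d (−4.94 to 11.8). The part of this split in the wild type changes and the interaction was not tested. The change differed by genotype for 1298 features (13.5%). It was more positive in transgenic mice for 650 (6.75%) and more negative for 648 (6.73%). That count was 18 when only replicates 1 and 2 stood for 15 d and 2760 with only the others. These fits had 2 and 5 arrays of transgenic 15 d, and fewer arrays pass fewer changes of a given size. The 18 and 2760 are therefore not compared. The count was 303 without wild type 15 d replicate 1, 600 without wild type 15 d replicate 3 and 2079 without transgenic 15 d replicate 2. The wild type arrays of 15 d lay with transgenic replicates 1 and 2 on the first component. Genotype and array set therefore cannot be told apart in this count. Among named genes the 5 smallest p-values belonged to Strap, Fis1, Cblc, Stambp and Tmem98. Strap, a scaffold of TGF-beta receptors and RNA-binding complexes, read 722 to 1152 in the early transgenic arrays, 386 and 401 in 15 d replicates 1 and 2 and 281 to 496 in the others, a fall of −1.22 ± 0.10 (adjusted p = 8.2e-11, limma) with changes of −1.18 in replicates 1 and 2 and −1.24 in the others. In wild type mice it read 324 to 454 early and 378 to 476 at 15 d, a change of 0.13, so the interaction was −1.36 (adjusted p = 5.2e-06, limma), and it passed under all 40 alternatives tried. At 15 d the genotypes then differed by −0.13 ± 0.13 (adjusted p = 0.49, limma), against 1.22 at the early times. The transgenic arrays given RAD001 for 12 h or 48 h read 738 to 1023.

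Cblc and Stambp were also higher than in wild type mice early. Cblc, a ubiquitin ligase of epithelial cells, read 463 to 675 early and 187 to 394 at 15 d in transgenic mice, and 198 to 242 and 228 to 290 in wild type mice; its genotype difference was 1.42 early and 0.04 ± 0.17 at 15 d. Stambp, a deubiquitinase of endosomes, read 482 to 672 early and 148 to 283 at 15 d, against 219 to 426 and 263 to 361 in wild type mice; its genotype difference was 0.82 early and −0.45 ± 0.16 at 15 d (adjusted p = 0.042, limma). Nr1d2 was the converse, lower than in wild type mice by −1.14 early and by −0.15 ± 0.19 at 15 d. Its interaction was 0.99 (adjusted p = 0.0077, limma). With transgenic replicates 1 and 2 alone at 15 d it was 0.98 and missed the threshold (adjusted p = 0.18, limma). With the other replicates alone it was 0.99 (adjusted p = 0.0037, limma), so its size was alike in both sets. With the replicate number as a block it was 0.88 (adjusted p = 0.066, limma). Fis1, a mitochondrial fission protein, fell by −0.32 ± 0.08 in transgenic and rose by 0.55 in wild type mice, and with replicates 1 and 2 alone its interaction missed the threshold (adjusted p = 0.070, limma), as did that of Cblc (adjusted p = 0.069, limma). Tmem98 was a case of change in wild type mice: it rose there by 0.76, from 249 to 344 early to 450 to 517 at 15 d, and did not pass in transgenic mice (−0.19 ± 0.09, adjusted p = 0.070, limma). Over all features 3159 (32.8%) differed by genotype at 12 h and 48 h and 1920 (19.9%) at 15 d, tests with unequal numbers of arrays that are not compared here. The wild type mean at 15 d rests on 3 arrays. The p-values use the spread within groups over all 42 arrays, which the titles call biological replicates.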

How the data were processed

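Trizol was used to isolate total RNA from ventral prostates, and biotin-labelled cRNA was hybridised to 1-colour Affymetrix arrays, per the labels' protocols. The authors deposited linear intensities per probe set in a series table; the scaling software and its settings are not named in the labels, and exact zeros are part of the deposited values. Arrays of 6 d and 9 d, held in another table, were not analysed here. Of 22626 probe sets, 20380 had 1 gene symbol in the platform annotation, 691 several and 1555 none; the 2 with values beyond a scanner's range, Cdx2 and Gja5, were left out. Intensities were floored at 16 and taken to log2, features under the 40th percentile of mean log2 intensity were dropped, and the probe set with the highest mean stood for its gene, which left 9627 features, 8496 of them named. Group means were fitted over all 42 arrays with limma 3.58.1 in R 4.3.3 (trended variance, Benjamini-Hochberg adjustment, threshold 0.05). The script was tested on simulated data. Groups and replicate numbers are those of the titles. Named genes were the 12 largest rises and falls in both 15 d sets, the largest differences between sets, up to 5 members per list by p-value, the 5 named genes with the smallest interaction p, and a few pathway genes. The members, the 40 gene lists and the alternatives were chosen with earlier results of these data known. The number of arrays limits the precision. No 2 of the 16 arrays were identical (correlations of 0.625 to 0.962).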

Additional observations from a re-analysis of the deposited data

Results flagged for a closer look

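The transgenic placebo groups of 12 h (4 arrays), 48 h (5) and 15 d (7) were each searched for outlying arrays. In 25 of 333 group tests of named genes and array measures, 1 array lay far from the others by Dixon's ratio (chance: about 1 in 20). At 15 d these were Pigt in replicate 2 (176), Stambp in replicate 4 (148), Bnip3 in replicate 10 (808), Clk4 in replicate 9 (288), Mtor and Slc2a1 in replicate 9 (both listed at 0) and Mvk in replicate 4 (listed at 0). At 48 h, replicate 4 had low Pigt (124), Cygb (48.4) and Akt1 (641) and high Slc2a1 (679.9). Replicate 2 of 48 h had high Bet1 (92.3), Sprr1a (377) and Cry2 (176), replicate 1 had low Ifnab (439) and Mcm2 (263), and replicate 5 had high Flt1 (145). At 12 h, replicate 4 had low Zc3h7a (498), Pfdn6 listed at 0, high Cald1 (441) and the most exact zeros of its group (132). Replicate 2 of 12 h had high Map11 (201) and Cblc (648), replicate 1 high Mcm2 (356) and replicate 3 low Bex1 (130.2).

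The change from the early times to 15 d differed between transgenic and wild type mice for 1298 features by the interaction term. With only transgenic replicates 1 and 2 at 15 d the count was 18, and with only the others 2760. These fits had unequal numbers of arrays and are not compared. Genotype and array set cannot be told apart in the count of 1298. The interaction was −1.36 log2 units for Strap, −0.88 for Fis1, −1.37 for Cblc, −1.27 for Stambp and −0.94 for Tmem98.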

How the results depend on the processing

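The replicate numbers did not pair the samples: the deviations of same-numbered arrays correlated from −0.14 to 0.04. With the replicate number as a block, 15 d against early gave 3909 calls, replicates 1 and 2 gave 826, the others 4047, the interaction 210 and 48 h against 12 h 0. Array weights gave 2907 calls for replicates 1 and 2, 2054 for the interaction and 1 for 48 h against 12 h. With probe sets kept apart the interaction gave 2111, with transgenic 15 d replicates 1 and 2 only 18, and with the others only 2760. Leaving out 1 array at a time, 15 d against early ranged from 4999 to 5578 calls, replicates 1 and 2 from 146 to 1342, the others from 5519 to 5805, the interaction from 303 to 2079, and 48 h against 12 h from 0 to 1.

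With exact zeros as missing, 4 genes changed sign: Pfdn6 to 0.15, Abce1 to 0.20, Sprr1a to −0.60 and Map11 to −0.14; the values left out are those listed at 0. Of the 100 genes named and called, 86 kept the call and the direction under each of the 30 to 32 settings in which they were tested. The block ended the calls of Rpf2, Mmp7, Ggact, Cracr2b, Slc2a1, Pfdn6, Tpm1 and Xbp1 and of the Nr1d2 interaction (0.88, adjusted p = 0.066, limma); the cause was not tested. Signals close to the floor of 16 and arrays with many zeros limit what falls can be measured.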
